A study of Homo sapiens with 8 samples.

Results

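FOXA1, GATA3, TP63, ELF3, EHF, GRHL1, GRHL3, OVOL1, KLF4 and HES2 encode transcription factors that act in the lineages and the differentiation of epithelia. These 10 genes were chosen by name with earlier results of these data known, so their counts and medians beside all genes are descriptions. All 10 were among the 25369 genes in the deposited expression table. Each one also passed the filter on low values that left 13369 genes for testing. Expression was measured by RNA-seq in MCF10A cells, a nontransformed mammary epithelial line that immortalized spontaneously, on day 7 of encapsulation in hydrogels. The study compared soft with stiff gels, and a basement membrane matrix with collagen. There were 4 gels with 2 libraries each, and the study names 2 independent trials. The labels give a replicate number only. It is taken here as the trial, which the sources used here do not state.

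The soft IPN and the stiff IPN were interpenetrating networks of alginate and reconstituted basement membrane (rBM), in which cross-linking of the alginate set the stiffness. In the study, calcium was added to cross-link the alginate, so the IPNs differ in added calcium as well as in stiffness. The soft col:rBM gel is named for a mixture of type 1 collagen with rBM, and the name of the stiff col gel gives collagen only. Whether the stiff col gel held rBM is not stated in the sources used here. The labels of these libraries differ by gel and replicate and list no added compound. Per the study's methods, MCF10A cells were kept in a medium with horse serum, epidermal growth factor, hydrocortisone, cholera toxin and insulin. By the gel names, the step from stiff IPN to stiff col exchanges alginate and rBM for collagen. The parts of that step cannot be told apart. Estimated from the values, between 13100000 and 18600000 reads per library were assigned to genes, where a read pair counts once. Values are given as normalized counts, which are reads per gene after the authors' scaling for library size, and the level of 3 reads, taken as the floor, was 2.41 to 3.73 normalized counts. Replicate 2 of stiff IPN, which had the lowest estimate of reads (13100000), stood apart from the other libraries. Its correlations with the other 7 libraries across all genes tested had a median of 0.946, the lowest of the 8, and the other medians were between 0.956 and 0.969. Levels, ratios and likeness, and some of the fitted differences, are also given without it, the first 3 of these as a choice made after seeing the data. Medians of the related lists are given with all 8 libraries only.

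Mammary epithelium has an inner luminal and an outer basal layer. FOXA1 and GATA3 are known as factors of the luminal lineage, p63 maintains the basal layer, and the ETS, grainyhead, OVO and Kruppel-like families drive barrier formation and late differentiation in many epithelia. HES proteins are repressors of the hairy family, several of which act downstream of Notch. In cells of mixed state, a bulk measurement cannot tell fewer cells of a type from less RNA per cell.

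Markers of basal mammary epithelium, which MCF10A cells are known to resemble, were abundant in each library. The 10 basal markers summed to between 122886 and 218864 normalized counts per library, with LAMB3 the most abundant by its mean, and none was at 0. By library, LAMB3 led only in replicate 1 of stiff IPN and of stiff col. ITGB4, KRT5, KRT6A or KRT17 led in the others, with KRT17 in stiff IPN replicate 2 at 71907 against 25292 for LAMB3. The 4 general epithelial markers summed to between 9122 and 17051, with KRT18 the most abundant by its mean. Of 6 markers of hormone receptor positive luminal cells, TFF1 was at 0 in each library and PGR was at no more than 1. ESR1 had between 2 and 15 normalized counts, and the luminal sum was 195 to 354, with GATA3 the most abundant by its mean over the libraries. So FOXA1 and GATA3 were read here in cells with almost no estrogen receptor RNA. These 6 markers do not speak for luminal genes at large. KRT8 and KRT18, general epithelial markers here, also stand in the list of luminal genes read below. Of the 26 genes of that list, 15 passed the filter. Among them MUC1 had between 321 and 3909 normalized counts and MAL2 between 456 and 4404. The 7 fibroblast markers summed to between 937 and 2014, with the highest sums in stiff IPN (1779 and 2014) and DCN the most abundant by its mean, while COL1A2 was at 0 throughout and LUM reached 1 in a single library. Among them FAP had 287 and 177 normalized counts in soft IPN, 712 and 914 in stiff IPN, 272 and 162 in soft col:rBM and 272 and 207 in stiff col. FAP was thus highest in both stiff IPN libraries, but DCN and COL1A1 were not. DCN had 1142 and 752 in soft IPN, 892 and 828 in stiff IPN, 615 and 526 in soft col:rBM and 1217 and 1085 in stiff col. COL1A1 had 222 and 239, 168 and 265, 333 and 244, and 242 and 214 in the same order of gels. The part of these markers in the results was not tested. The 4 endothelial markers summed to between 39 and 270, with KDR the most abundant. The 4 leukocyte markers summed to 4224 and 2093 in soft IPN, 1223 and 325 in stiff IPN, 5018 and 1348 in soft col:rBM and 4361 and 992 in stiff col. Nearly all of this was CD68, PTPRC was at 0 in each library and CD3E did not pass 1. The leukocyte and endothelial sums were lowest in stiff IPN replicate 2, and their part in the results was not tested.

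Per kilobase of annotated exon, TP63 had the highest mean level over the 8 libraries, at 147.5 normalized counts per kilobase. EHF followed with 95.5, HES2 with 87.0, KLF4 with 52.1 and GATA3 with 47.3. ELF3 had 29.8, GRHL3 25.5, FOXA1 19.3, OVOL1 7.99 and GRHL1 7.69. The ranges over the libraries overlapped between each gene and the next in this order. TP63 was above EHF in 7 of 8 libraries, EHF above HES2 in 7 and FOXA1 above OVOL1 in 7. ELF3 and GRHL3, GRHL3 and FOXA1, and OVOL1 and GRHL1 each changed places in 4 of the 8. Levels per kilobase rest on the union of annotated exons, some of which these cells may not use. TP63 led in 6 libraries, but in stiff IPN the first place went to EHF in replicate 1 and to HES2 in replicate 2. Over the 7 libraries without stiff IPN replicate 2, the mean level per kilobase was 62.3 for HES2, 19.9 for ELF3 and 5.56 for OVOL1, and GATA3 (46.8) came before KLF4 (44.7), GRHL3 (21.4) before ELF3 and GRHL1 (6.47) before OVOL1.

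Variation across the libraries differed widely among the 10 genes. The ratio of the highest to the lowest library was 89.0 for ELF3, 21.3 for HES2, 13.6 for OVOL1 and 11 for GRHL3. It was 7.4 for FOXA1, 5.86 for GRHL1, 3.62 for EHF, 3.08 for KLF4 and 3.0 for TP63. GATA3 had the smallest ratio of the 10, 1.30. Stiff IPN replicate 2 was the highest library for 6 of them, and without it the ratio was 68.0 for ELF3, 11.2 for HES2, 8.38 for GRHL3, 5.14 for OVOL1, 4.91 for GRHL1 and 1.52 for KLF4. The root-mean-square distance from a gene's own mean had a median of 0.87 (log2) over the 10 genes and of 0.30 over all genes tested, and of 0.75 and 0.27 without that library.

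**Figure D1:**
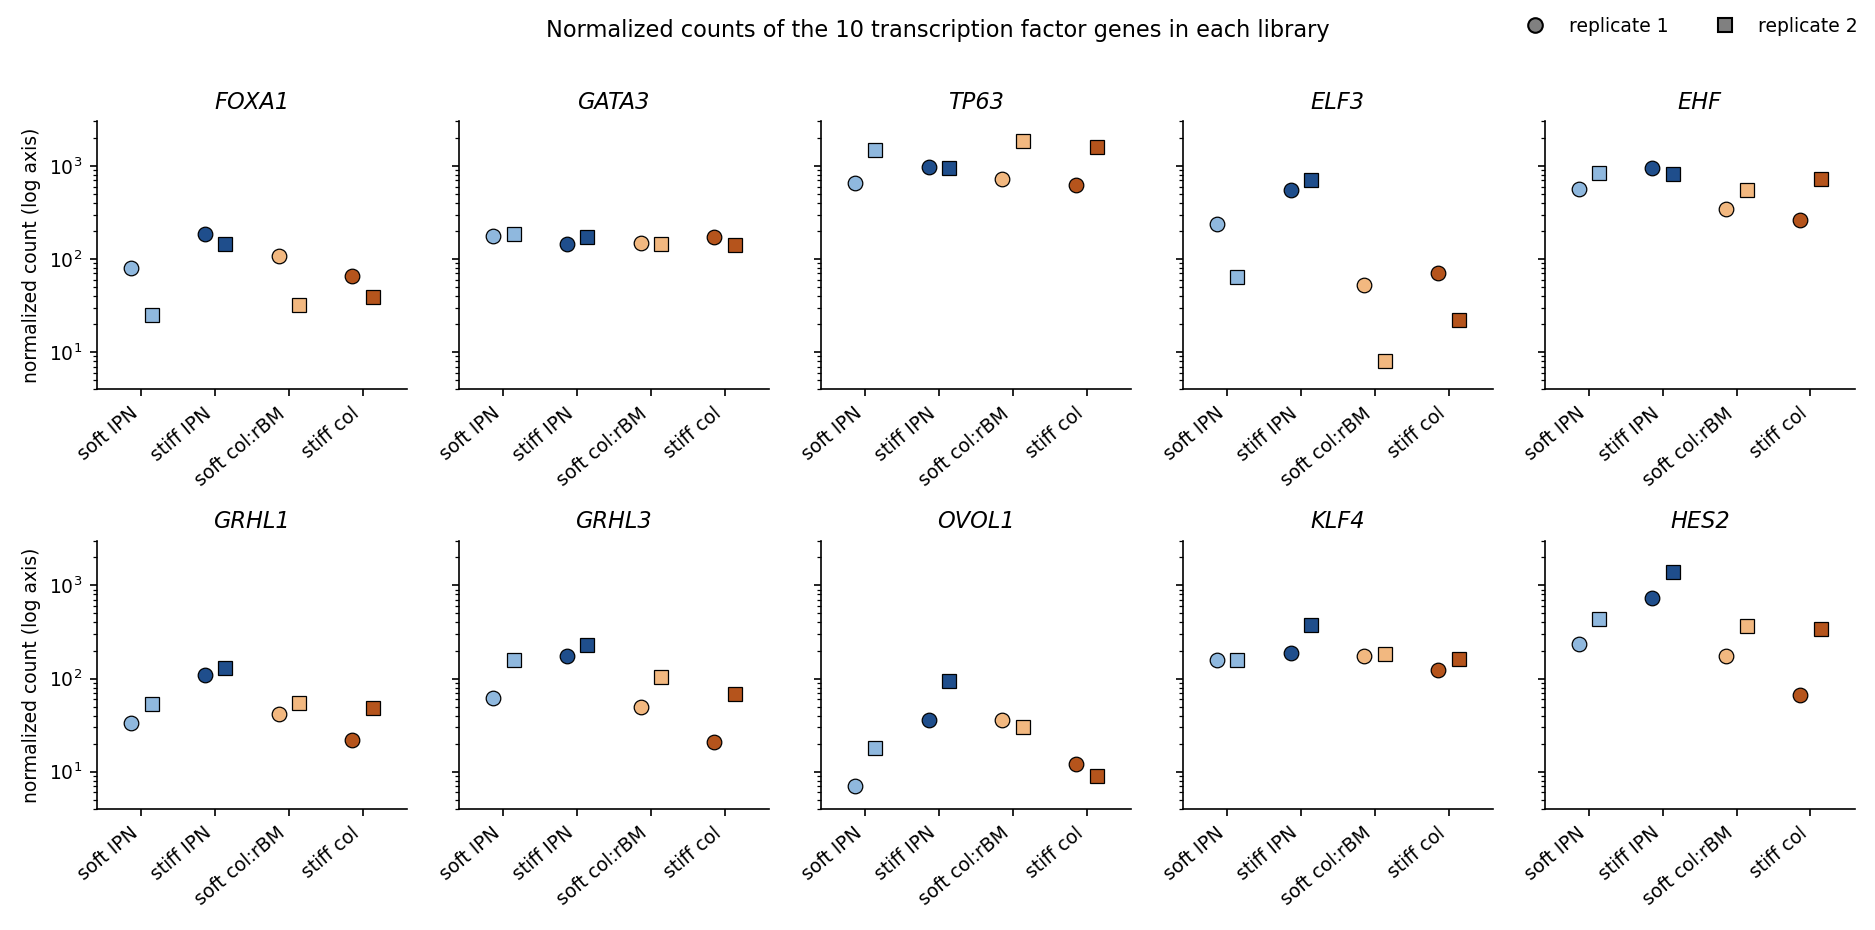
Normalized counts (log axis) of each of the 10 genes in the 4 gels, with circles for replicate 1 and squares for replicate 2. Both stiff IPN libraries lie above all other libraries for FOXA1, ELF3, GRHL1, GRHL3, KLF4 and HES2, whereas GATA3 stays between 141 and 184.

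Promoter sequences are shown for GRHL1, GRHL3, ELF3 and HES2, the 4 genes that the test with the trial as a block called for stiff col against stiff IPN. RefSeq sequences on GRCh38.p14 were at hand for 9 of the 10 genes, with 16 annotated starts, and OVOL1 is named only. Each sequence holds the 250 bases before a start, 5′ to 3′ on the strand of the gene, and GRHL3 has 2 starts. Capitals mark the motifs listed after the sequences, on either strand.
GRHL1 promoter, chr2:9951443-9951692, plus strand: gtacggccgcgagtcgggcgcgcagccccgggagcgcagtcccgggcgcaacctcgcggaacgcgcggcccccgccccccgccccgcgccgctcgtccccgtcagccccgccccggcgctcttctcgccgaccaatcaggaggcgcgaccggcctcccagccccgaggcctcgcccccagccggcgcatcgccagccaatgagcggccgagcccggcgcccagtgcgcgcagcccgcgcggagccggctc
GRHL3 promoter, chr1:24319107-24319356, plus strand: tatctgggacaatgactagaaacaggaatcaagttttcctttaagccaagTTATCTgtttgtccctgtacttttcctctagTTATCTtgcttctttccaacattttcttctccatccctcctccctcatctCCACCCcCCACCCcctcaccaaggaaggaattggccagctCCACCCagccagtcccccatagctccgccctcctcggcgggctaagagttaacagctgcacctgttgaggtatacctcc
GRHL3 promoter, chr1:24322790-24323039, plus strand: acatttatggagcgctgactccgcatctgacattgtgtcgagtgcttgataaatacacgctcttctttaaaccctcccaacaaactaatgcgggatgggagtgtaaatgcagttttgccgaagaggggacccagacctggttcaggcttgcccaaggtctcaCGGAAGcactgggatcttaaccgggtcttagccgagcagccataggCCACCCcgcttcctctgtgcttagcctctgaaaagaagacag
ELF3 promoter, chr1:202010337-202010586, plus strand: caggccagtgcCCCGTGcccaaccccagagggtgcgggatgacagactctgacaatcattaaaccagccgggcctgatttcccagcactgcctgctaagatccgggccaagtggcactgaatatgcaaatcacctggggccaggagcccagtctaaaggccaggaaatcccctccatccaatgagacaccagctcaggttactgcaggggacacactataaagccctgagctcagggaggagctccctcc
HES2 promoter, chr1:6419920-6420169, minus strand: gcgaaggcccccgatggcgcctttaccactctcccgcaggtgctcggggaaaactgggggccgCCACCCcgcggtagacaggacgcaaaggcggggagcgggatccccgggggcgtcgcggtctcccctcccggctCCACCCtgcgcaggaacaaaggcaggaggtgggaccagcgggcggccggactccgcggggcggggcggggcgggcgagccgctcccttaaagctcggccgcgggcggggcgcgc
The searched letters were AACCGGTT for grainyhead factors, AGATAA for GATA factors, TGTTTAC for forkhead factors, CGGAAG for ETS factors, CCACCC for Kruppel-like factors and CACGNG for HES factors, on both strands, and no motif contains another. AACCGGTT was in none of the 9 genes' windows and in 0.117% of 35116 windows of this length. CCACCC was in 9 of the 16 windows, those of HES2, both of GRHL3 and others of EHF and GATA3, against 31.3% of all windows. GATA3 alone has 6 of the 16, so the windows are not independent. CACGNG was in 5 of 16, of ELF3, EHF, GATA3 and KLF4 (26.7% of all windows), and CGGAAG in 2, of GRHL3 and GATA3 (16.5%). AGATAA was in 2, of GRHL3 and EHF (9.17%), and TGTTTAC in 1, of EHF (2.98%). The windows of GRHL1, FOXA1 and TP63 and a window of GATA3 held none of the motifs. That of GRHL1 had 81.6% G or C, with HES2 at 76.4%, ELF3 at 58.4% and GRHL3 at 50.8% and 52.0%. The median over all windows was 58.0%. A match to these letters is a description of the window.

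Among the luminal factors, FOXA1 varied more across the libraries than GATA3, and the F test for any difference among the 4 gels called neither (adjusted p = 0.993 for FOXA1, and 0.0978 with the block, against 1 and 0.760 for GATA3). FOXA1, a forkhead pioneer factor that opens chromatin for the estrogen receptor, lies on chromosome 14 from 38058757 to 38065264 on the minus strand (GRCh37, as all gene positions here). Its normalized counts in replicates 1 and 2, the order used throughout, were 81 and 25 in soft IPN, 185 and 146 in stiff IPN, 109 and 32 in soft col:rBM and 66 and 39 in stiff col. Both stiff IPN libraries were above the other 6, while the other 3 gels overlapped. FOXA1 was 3.58-fold higher in stiff IPN than in soft IPN (log2 difference 1.84, SE 0.72, limma adjusted p = 0.515). With the trial as a block the adjusted p was 0.0440, so FOXA1 was called only in that fit. The call ended when soft IPN replicate 1 (adjusted p = 0.0870), soft IPN replicate 2 (0.474), stiff IPN replicate 2 (0.0674), stiff col replicate 1 (0.0528) or stiff col replicate 2 (0.0529) was left out. Against stiff IPN, stiff col had a log2 difference of -1.68 (SE 0.72, adjusted p = 0.785, and 0.0685 with the block), with adjusted p = 0.0101 in the blocked fit without stiff IPN replicate 1. In the blocked fit without stiff IPN replicate 2, these differences were 1.32 and -1.16 (adjusted p = 0.0674 and 0.117), and the trials gave 1.18 and 2.50 for the first and -1.47 and -1.88 for the second. TTC6 is annotated on the other strand of this locus and its level was not read here.

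GATA3, a zinc finger factor required for the luminal fate, lies on chromosome 10 from 8087341 to 8117161 on the plus strand. It had 177 and 184 normalized counts in soft IPN, 146 and 173 in stiff IPN, 147 and 145 in soft col:rBM and 172 and 141 in stiff col. All 8 libraries lay within a narrow band, with both soft IPN libraries above the other 6, and the other 3 gels overlapped. The largest of its log2 differences in the 4 pairwise comparisons was -0.30 (SE 0.25), between soft col:rBM and soft IPN. For stiff IPN against soft IPN the difference was -0.18 with a 95% interval from -0.76 to 0.40. For stiff col against stiff IPN it was -0.03 with an interval from -0.61 to 0.55. With the block these intervals were -0.67 to 0.31 and -0.52 to 0.46. These intervals leave room for a change of up to about that size in either direction. GATA3-AS1, which overlaps GATA3 on the other strand, had at most 2 normalized counts in any library.

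TP63 encodes p63, the p53 relative that keeps basal cells in their state. It spans chromosome 3 from 189349178 to 189615065 on the plus strand. It had 650 and 1485 normalized counts in soft IPN, 961 and 937 in stiff IPN, 716 and 1865 in soft col:rBM and 622 and 1589 in stiff col. The gels overlapped, and the trials separated more clearly than the gels did. In 3 gels TP63 was higher in replicate 2, by a ratio of 2.28 in soft IPN, 2.60 in soft col:rBM and 2.55 in stiff col, while in stiff IPN the ratio was 0.975. The difference of stiff IPN from soft IPN was therefore 0.56 (log2) within trial 1 and -0.66 within trial 2. Fitted over both trials it was -0.05, with a 95% interval from -1.48 to 1.38 without the block and from -0.78 to 0.68 with it. In the fit with the block, leaving out a single stiff IPN library gave opposite calls. The difference from soft IPN was -0.72 (adjusted p = 0.0119) without stiff IPN replicate 1 but 0.62 (0.0384) when replicate 2 of that gel was the one left out. For stiff col against stiff IPN the corresponding values were 0.74 (0.0126) and -0.60 (0.0465). With all 8 libraries no comparison called TP63 with or without the block, and its highest absolute log2 difference was 0.23, between soft col:rBM and soft IPN.

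ELF3 and EHF are ETS factors of epithelial cells. ELF3, which activates barrier and inflammatory genes, lies on chromosome 1 from 201977073 to 201986311 on the plus strand. Its normalized counts were 240 and 64 in soft IPN, 544 and 712 in stiff IPN, 53 and 8 in soft col:rBM and 71 and 22 in stiff col. Stiff IPN was highest without overlap, soft IPN replicate 2 lay within the range of stiff col, and both soft IPN libraries were above both soft col:rBM libraries. The lowest value, 8, has an exact Poisson 95% interval of 3.67 to 15.2, which covers counting error only. Stiff col was 15.3-fold lower than stiff IPN (log2 difference -3.94, SE 0.98, adjusted p = 0.432, and 0.0213 with the block), in the same direction in both trials (-2.92 and -4.95). This blocked call ended without soft IPN replicate 1 (adjusted p = 0.0727), soft IPN replicate 2 (0.0723), stiff col replicate 1 (0.173) or stiff col replicate 2 (0.139), and the difference was -5.15 without stiff IPN replicate 1, against -2.72 when replicate 2 of that gel was left out. Stiff IPN was 4.98-fold higher than soft IPN (2.32, SE 0.98, adjusted p = 0.531, and 0.0687 with the block). In the blocked fit this difference was 3.53 (adjusted p = 0.00123) without stiff IPN replicate 1, against 1.10 (0.0902) when replicate 2 of that gel was left out. Soft col:rBM against soft IPN gave -2.51 (SE 0.98, adjusted p = 1, and 0.580 with the block), called with the block only when stiff IPN replicate 1 (0.0120) or stiff IPN replicate 2 (0.0121) was left out. The trials gave 1.18 and 3.46 for stiff IPN against soft IPN. ELF3-AS1 is annotated on the other strand of the ELF3 locus, and GRHL1, TP63 and KLF4 also have genes annotated on the other strand. The levels of these genes were not read here.

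EHF, the closest relative of ELF3 among the members and a factor of glandular and stratified epithelium, lies on chromosome 11 from 34642640 to 34684835 on the plus strand. It had 569 and 845 normalized counts in soft IPN, 944 and 820 in stiff IPN, 344 and 557 in soft col:rBM and 261 and 717 in stiff col. Stiff IPN overlapped with soft IPN and lay above both collagen-containing gels. Stiff col against stiff IPN had a log2 difference of -1.02 (SE 0.48, adjusted p = 0.793, and 0.147 with the block). In trial 1 that difference was -1.85 and in trial 2 it was -0.19. The blocked fit called it once stiff IPN replicate 2 was left out (-1.58, adjusted p = 0.0184), but not when replicate 1 was left out (-0.47, adjusted p = 0.246).

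The grainyhead factors GRHL1 and GRHL3 control genes of cell junctions and of the epidermal barrier, and both were highest in stiff IPN. GRHL1 lies on chromosome 2 from 10091822 to 10142405 on the plus strand. It had 33 and 53 normalized counts in soft IPN, 108 and 129 in stiff IPN, 42 and 54 in soft col:rBM and 22 and 48 in stiff col. Stiff IPN was above the rest by a wide margin, and the other 3 gels overlapped. Stiff IPN was 2.78-fold higher than soft IPN (log2 difference 1.47, SE 0.46, adjusted p = 0.493, and 0.0449 with the block). Stiff col was 3.55-fold lower than stiff IPN (-1.83, SE 0.46, adjusted p = 0.457, and 0.0284 with the block). The trials gave 1.68 and 1.27 for the first of these differences and -2.24 and -1.41 for the second. With the block, the first call ended without soft IPN replicate 1 (adjusted p = 0.124), soft IPN replicate 2 (0.398), soft col:rBM replicate 1 (0.0656), soft col:rBM replicate 2 (0.0687), stiff col replicate 1 (0.0555) or stiff col replicate 2 (0.0610). The second ended without soft IPN replicate 1 (0.0727), soft IPN replicate 2 (0.0747), stiff col replicate 1 (0.306) or stiff col replicate 2 (0.0772). Both blocked calls were kept without stiff IPN replicate 2, at adjusted p = 0.0359 and 0.0234.

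GRHL3 is the grainyhead factor most tied to the outer epidermal barrier. It is annotated on chromosome 1 from 24526048 to 24690972 on the plus strand. Its normalized counts were 62 and 158 in soft IPN, 176 and 231 in stiff IPN, 50 and 105 in soft col:rBM and 21 and 68 in stiff col. Stiff IPN again lay above all other libraries, with soft IPN replicate 2 the nearest at 158. Stiff col was 5.20-fold lower than stiff IPN (log2 difference -2.38, SE 0.68, adjusted p = 0.577, and 0.0153 with the block), by -3.01 in trial 1 and -1.75 in trial 2. The blocked call ended without soft IPN replicate 1 (adjusted p = 0.0589), soft IPN replicate 2 (0.0598) or stiff col replicate 1 (0.129), and it was kept without stiff IPN replicate 2 (0.00665). Stiff IPN against soft IPN had a difference of 1.02 (SE 0.68, adjusted p = 0.632, and 0.113 with the block), which the blocked fit called without stiff IPN replicate 2 (1.5, adjusted p = 0.0325) but not without replicate 1 of that gel (0.54, adjusted p = 0.230). The trials gave 1.49 and 0.55. STPG1 overlaps GRHL3 on the other strand, and the library kit does not mark strand, so reads where the genes overlap cannot be told apart. STPG1 had between 241 and 263 normalized counts in stiff IPN and between 246 and 377 in the other gels. The part of the shared reads in the GRHL3 values was not tested.

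OVOL1, KLF4 and HES2 are factors of late differentiation or repression. OVOL1, a zinc finger repressor that takes epidermal progenitors out of the cell cycle, lies on chromosome 11 from 65554534 to 65564685 on the plus strand. It had 7 and 18 normalized counts in soft IPN, 36 and 95 in stiff IPN, 36 and 30 in soft col:rBM and 12 and 9 in stiff col. Soft IPN and stiff col were low, soft col:rBM was intermediate, and its replicate 1 tied with stiff IPN replicate 1 at 36. At this depth the lowest value, 7, has an exact Poisson 95% interval of 2.90 to 14.8. Stiff IPN was 4.83-fold higher than soft IPN (log2 difference 2.27, SE 0.62, adjusted p = 0.491, and 0.0552 with the block). Stiff col was 5.23-fold lower than stiff IPN (-2.39, SE 0.62, adjusted p = 0.474, and 0.0595 with the block). Both were called in the blocked fit without stiff IPN replicate 1 (adjusted p = 0.0151 and 0.0148), and the second also without soft col:rBM replicate 1 (0.0470) or soft col:rBM replicate 2 (0.0472). Without stiff IPN replicate 2 the blocked differences were 1.69 and -1.80 (adjusted p = 0.111 and 0.121).

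Stiff col was lower than soft col:rBM in OVOL1, by -1.57 (SE 0.62), and the gels did not overlap. That difference was not called (adjusted p = 1 with and without the block), nor was the difference of 2.27 between the IPNs with all 8 libraries, so their opposite signs are a description. By their names the collagen gels also differ in rBM. Libraries of both kinds of gel that did not overlap and lay in opposite directions were found for OVOL1 and KLF4, 2 of the 10 genes, and for 1.77% of all genes tested. The difference between these effects was -3.84 (log2, SE 0.87, adjusted p = 1, and 0.180 with the block), and it did not pass the test. In the blocked fit without stiff IPN replicate 1 it did (-4.43, adjusted p = 0.0216), but it did not when replicate 2 of that gel was left out (-3.26, adjusted p = 0.111). OVOL1-AS1, on the other strand of the same locus, had 3 and 2 normalized counts in soft IPN, 10 and 31 in stiff IPN, 14 and 14 in soft col:rBM and 7 and 5 in stiff col. Its highest library was stiff IPN replicate 2, as for OVOL1, but both soft col:rBM libraries were above stiff IPN replicate 1. Without strand the reads of the overlap cannot be assigned to one of the genes.

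KLF4, a Kruppel-like factor needed for the epidermal barrier, lies on chromosome 9 from 110247133 to 110252763 on the minus strand. It had 160 and 158 normalized counts in soft IPN, 187 and 379 in stiff IPN, 173 and 184 in soft col:rBM and 123 and 162 in stiff col. The 7 libraries other than stiff IPN replicate 2 lay between 123 and 187, and that library alone had 379. Stiff IPN against soft IPN gave a log2 difference of 0.74 (SE 0.36, adjusted p = 0.550, and 0.148 with the block), but 0.23 without stiff IPN replicate 2, against 1.25 when replicate 1 of that gel was left out. For stiff col against stiff IPN the difference was -0.91 (SE 0.36, adjusted p = 0.744, and 0.128 with the block), and -0.40 without stiff IPN replicate 2. Without stiff IPN replicate 1, the blocked fit called both (adjusted p = 0.0118 and 0.00841), and it called neither when replicate 2 was left out (0.392 and 0.243). The size of the KLF4 difference thus rested on stiff IPN replicate 2.

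HES2, a hairy family repressor, lies on chromosome 1 from 6472478 to 6484730 on the minus strand. Its normalized counts were 234 and 435 in soft IPN, 740 and 1407 in stiff IPN, 175 and 366 in soft col:rBM and 66 and 342 in stiff col. Both stiff IPN libraries were above all others, and the other 3 gels overlapped. Stiff IPN was 3.19-fold higher than soft IPN (log2 difference 1.67, SE 0.77, adjusted p = 0.543, and 0.0409 with the block), and the trials gave 1.66 and 1.69. That call ended in the blocked fit without soft IPN replicate 1 (adjusted p = 0.0961) or soft IPN replicate 2 (0.487), and was kept without stiff IPN replicate 2 (0.0343). Stiff col was 6.74-fold lower than stiff IPN (-2.75, SE 0.77, adjusted p = 0.540, and 0.0112 with the block). Of the 7 blocked calls among the 10 genes, it was the one that held in all 8 fits that left out a library, with adjusted p between 0.00123 and 0.0490. Its size was -2.05 without stiff col replicate 1 and -3.45 without stiff col replicate 2.

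Stiff IPN against soft IPN asks about stiffness in the gels of alginate and rBM, which also differ in added calcium. Across the 10 genes, 8 had positive and 2 had negative log2 differences, with a median of 1.25, against 6603 positive and 6741 negative and a median of -0.01 over all 13369 genes tested. In 7 of the 10 (FOXA1, OVOL1, HES2, ELF3, GRHL1, GRHL3 and KLF4) both stiff IPN libraries were above both soft IPN libraries, which held for 20.5% of all genes tested. The study had already listed FOXA1, OVOL1 and HES2 as higher in stiff IPN, from these same libraries. The counts of members are therefore no independent support. Without stiff IPN replicate 2 the median was 1.02, and the number without overlap was 8, against 30.9% of all genes. The fit without a block called 0 of the 10 by limma and 0% of all genes. At an unadjusted p under 0.05 it had 4 of the 10, FOXA1, OVOL1, ELF3 and GRHL1, against 9.31% of all genes. With the trial as a block limma called 3 of the 10, FOXA1, HES2 and GRHL1, against 511 genes or 3.82% of all. All 3 were higher in stiff IPN, as were 1.69% of all genes. Leaving out 1 library from the blocked fit moved these counts. The members called were 7 without stiff IPN replicate 1 (2688 of all genes), 4 without stiff IPN replicate 2 (1092), 2 without either soft col:rBM library (330 and 325), 1 without either stiff col library (294 and 254) and 0 without either soft IPN library (240 and 0). The 7 include TP63 as lower and the 4 include TP63 as higher in stiff IPN, so these counts mix directions.

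Stiff col against stiff IPN asks about collagen at high stiffness. This comparison shares the stiff IPN libraries with the previous one, so a gene high in stiff IPN enters both, and the values of each comparison stand on their own. Of the 10 genes, 9 had negative differences and 1, TP63, a positive one, with a median of -1.75, against 6604 negative and 6733 positive and a median of 0.00 over all genes tested. In 8 of the 10, FOXA1, OVOL1, HES2, ELF3, EHF, GRHL1, GRHL3 and KLF4, both stiff col libraries were below both stiff IPN libraries, against 15.8% of all genes. Without stiff IPN replicate 2 the median was -1.70 and the number was again 8, against 25% of all genes. Without a block limma called 0 of the 10 and 0% of all genes, and 6 of the 10 (OVOL1, HES2, ELF3, GRHL1, GRHL3 and KLF4) had an unadjusted p under 0.05, against 6.27%. With the block, limma called 4 of the 10, HES2, ELF3, GRHL1 and GRHL3, against 330 genes or 2.47%. All 4 were lower in stiff col, as were 1.47% of all genes. The blocked count was 8 without stiff IPN replicate 1 (2215 of all genes), 6 without stiff IPN replicate 2 (725), 5 without either soft col:rBM library (288 and 290) and 2 without stiff col replicate 2 (87). The 8 include TP63 as higher and the 6 include TP63 as lower in stiff col. It was 1 without stiff col replicate 1 (36) and 1 without either soft IPN library (108 and 110).

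**Figure D2:**
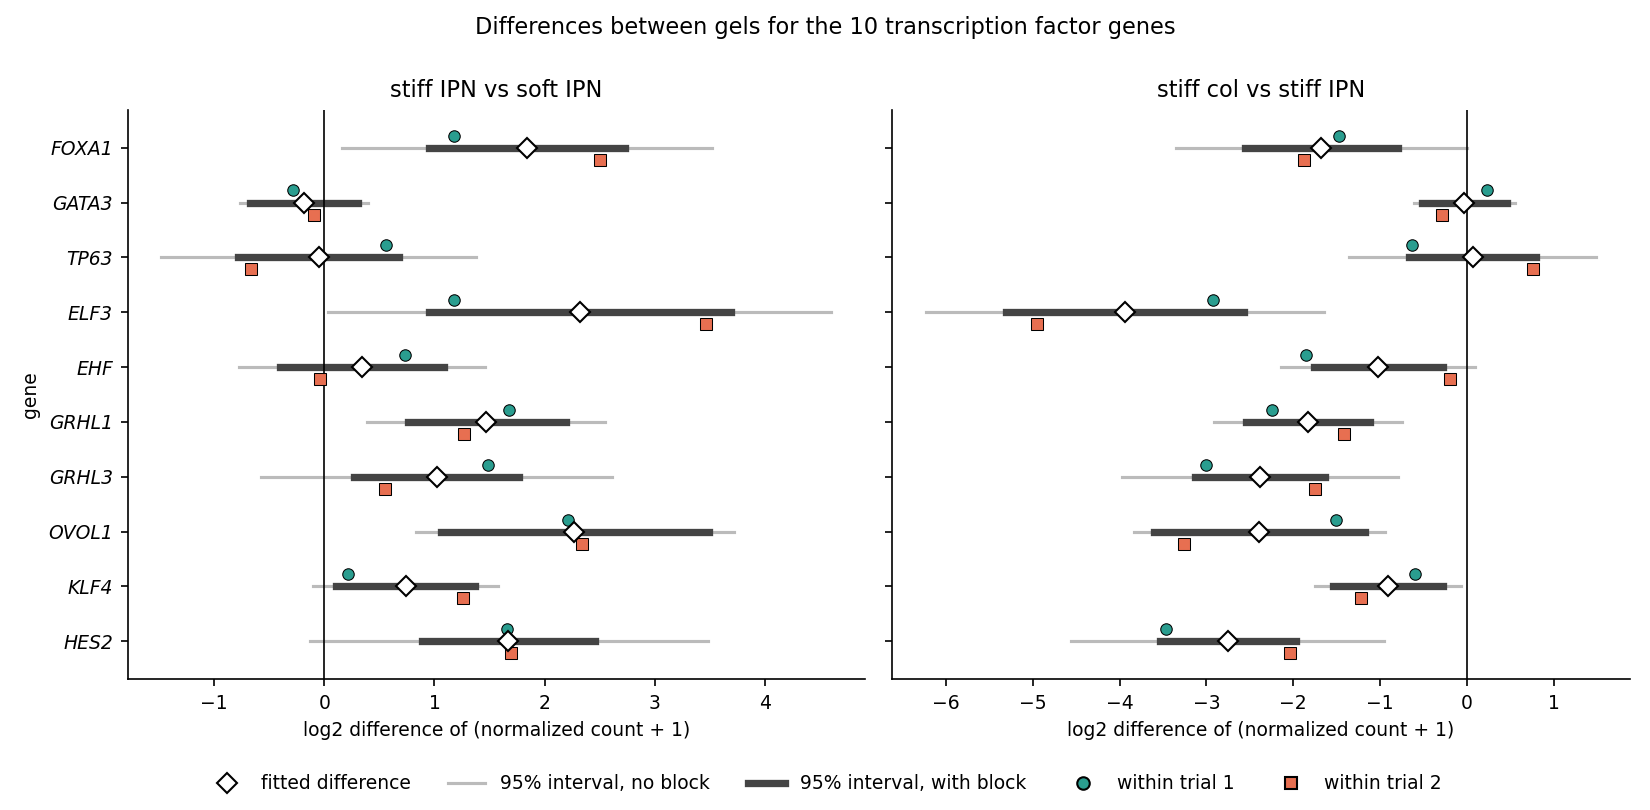
Log2 differences of the 10 genes for stiff IPN against soft IPN (left) and stiff col against stiff IPN (right), with the fitted value (diamond), its 95% interval without and with the trial as a block, and the difference within each trial. Within both trials FOXA1, ELF3, GRHL1, GRHL3, OVOL1, KLF4 and HES2 lie above 0 on the left and below 0 on the right, while for TP63 the trials lie on opposite sides of 0 in both panels.

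In 6 of the 10 genes, FOXA1, HES2, ELF3, GRHL1, GRHL3 and KLF4, both stiff IPN libraries were above all 6 other libraries, against 7.91% of all genes tested. Stiff IPN replicate 1 by itself was above those 6 libraries in 7 of the 10, EHF being the addition, against 13.1% of all genes. The F test for any difference among the 4 gels called 0 of the 10 and 0% of all genes without a block, where 5 of the 10 (OVOL1, HES2, ELF3, GRHL1 and GRHL3) and 702 of all genes had an unadjusted p under 0.05. With the block it called ELF3 (adjusted p = 0.0276), HES2 (0.0301) and GRHL3 (0.0451), against 1.58% of all genes. Of the 10, the blocked F test called 7 without stiff IPN replicate 1 (2034 of all genes), 4 without stiff IPN replicate 2 (571), 3 without either soft col:rBM library (195 and 192), 1 without either stiff col library (125 and 176) and 0 without either soft IPN library (25 and 4).

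Stiff col against soft col:rBM asks about stiffness in the presence of collagen, although by their names these gels also differ in rBM. Limma called 0 of the 10 and 0% of all genes without a block and 0 of the 10 and 0% with it. OVOL1 had an unadjusted p under 0.05 without a block, as did 1.05% of all genes. The median over the 10 was -0.28, with 8 negative and 2 positive differences, against 6753 negative, 6569 positive and a median of 0.00 over all genes tested. Soft col:rBM against soft IPN compares the soft gels. Here 0 of the 10 and 0% of all genes were called without a block, and 0 of the 10 and 0.0224% with it, while OVOL1 and ELF3 had an unadjusted p under 0.05, as did 1.42% of all genes. The median over the 10 was -0.07, with 5 positive and 5 negative differences, against 6598 positive, 6723 negative and a median of 0.00 over all genes tested. The blocked fit called ELF3 alone when either stiff IPN library was left out (21 of all genes each time).

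The stiffness effect in the collagen gels minus that in the IPNs had a median of -1.68 over the 10 genes, with 9 negative values and 1 positive (GATA3), against 6526 negative, 6825 positive and a median of 0.01 over all genes tested. Limma called 0 of the 10 and 0% of all genes without a block, and 0 of the 10 and 0.015% with it. OVOL1 and GRHL1 had an unadjusted p under 0.05 without a block, as did 2.08% of all genes. After OVOL1 the values were -2.42 for HES2 (SE 1.09, adjusted p = 1, and 0.180 with the block), -2.06 for FOXA1, -2.01 for GRHL1 and -1.93 for GRHL3. The blocked fit without stiff IPN replicate 1 called 5 of the 10 (675 of all genes), namely FOXA1 (adjusted p = 0.0278), OVOL1 (0.0216), HES2 (0.0490), ELF3 (0.0217) and KLF4 (0.0270). That fit keeps only replicate 2 of stiff IPN, the library that stood apart, and with this library left out instead 0 of the 10 (41 of all genes) were called. Without stiff col replicate 2 the blocked fit called HES2 (0.0122).

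Between the trials, the members did not move in one direction. FOXA1 was lower in trial 2 in each gel, with ratios of trial 2 to trial 1 between 0.294 in soft col:rBM and 0.789 in stiff IPN. ELF3 was lower in trial 2 in soft IPN (0.267), soft col:rBM (0.151) and stiff col (0.310) and higher in stiff IPN (1.31). HES2, GRHL1 and GRHL3 were higher in trial 2 in each gel, HES2 by ratios between 1.86 and 5.18, GRHL3 between 1.31 and 3.24 and GRHL1 between 1.19 and 2.18. EHF was higher in trial 2 in all gels but stiff IPN, where the ratio was 0.869. For OVOL1 the ratio was 2.57 in soft IPN and 2.64 in stiff IPN but 0.833 in soft col:rBM and 0.75 in stiff col. Stiff IPN had the ratio nearest to 1 of the 4 gels in FOXA1, TP63, ELF3, EHF, GRHL1 and GRHL3, but the ratio farthest from 1 in KLF4 (2.03) and OVOL1. The block takes out the part of these differences that the gels share.

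**Figure D3:**
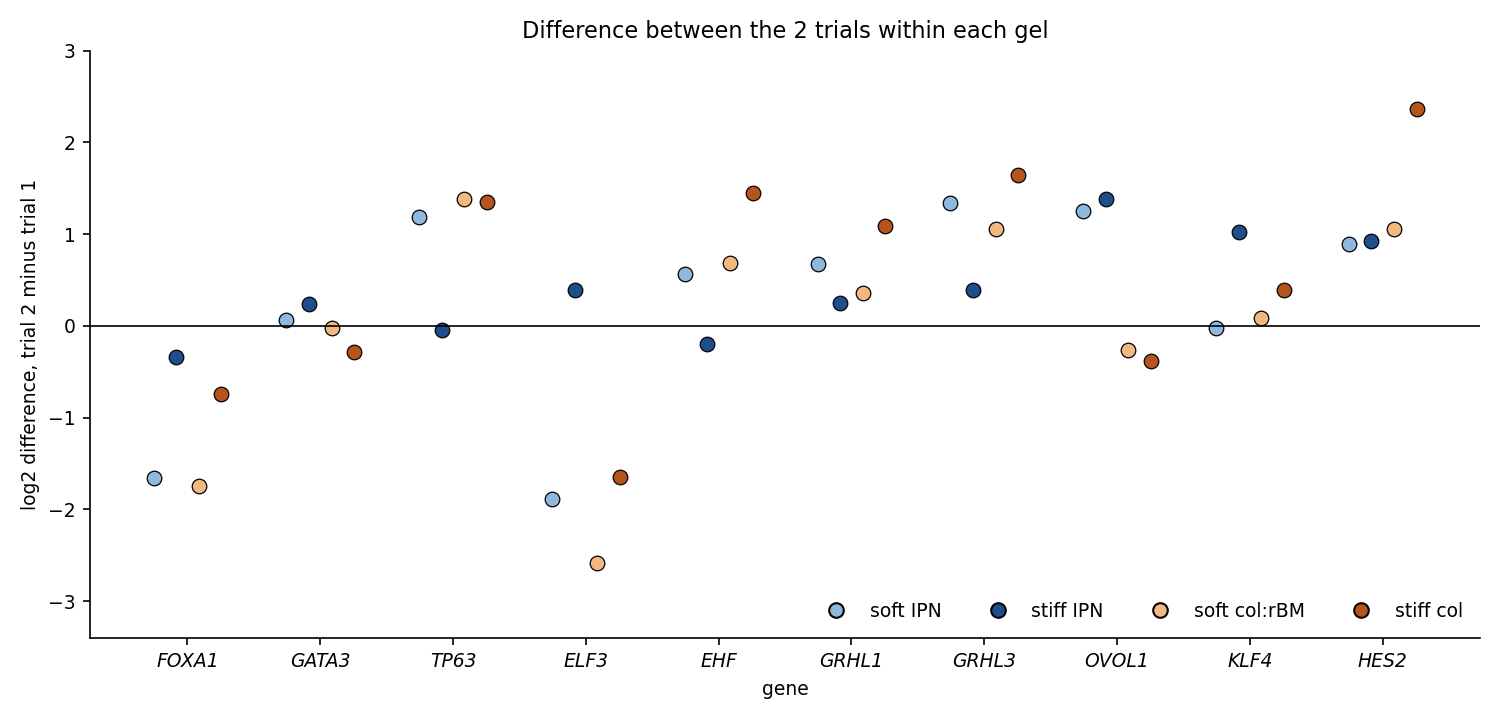
Log2 difference between trial 2 and trial 1 within each gel for each of the 10 genes, with 1 point per gel. TP63 was higher in trial 2 in 3 gels and not in stiff IPN (-0.04), and ELF3 and FOXA1 have negative values in soft IPN, soft col:rBM and stiff col.

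For each member, the genes with the most similar pattern were found by the root-mean-square difference of log2 values over the 8 libraries, each gene centred on its own mean. GATA3 had LRPAP1, TRAPPC5 and C19orf70 at 0.06, which for so flat a gene says little more than that they were flat too. TP63 had FANCI at 0.09, NIPAL1 at 0.10 and SKA1 at 0.12. KLF4 had CASZ1 at 0.10, IRGQ at 0.12 and MITF at 0.13, and EHF had FAM155B at 0.15, GPD1L at 0.21 and PRKAR1B at 0.24. C1orf116 was near both GRHL3 (0.21) and HES2 (0.36). GRHL3 also had TSPAN1 at 0.25 and NUP210 at 0.29, and HES2 had IL1RN at 0.23 and SERPINB13 at 0.38. GRHL1 had MYEF2 at 0.24, MYO5C at 0.25 and C1orf74 at 0.25. FOXA1 had SCEL at 0.37, WNT9A at 0.42 and SERPINB7 at 0.42. ELF3 and OVOL1 had no close match, since their nearest genes were CLDN4 at 0.83, SAA2 at 0.97 and C15orf48 at 1.01 for ELF3 and BAMBI at 0.66, HCN3 at 0.67 and PGBD5 at 0.67 for OVOL1. Over the 7 libraries without stiff IPN replicate 2, the gene was still among the nearest 3 of its member in 13 of these 30 pairs of member and gene. For KLF4 none of the 3 was, with CASZ1 at rank 15, IRGQ at 46 and MITF at 148. The same held for OVOL1, with HCN3 at rank 10, BAMBI at 26 and PGBD5 at 42.

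Lists of related genes were read from the same fits. With all 8 libraries limma called no gene of these lists without the block, so the calls below are those of the blocked fit, set against the shares of all genes given above. Of 36 paralogs of the members, 25 were tested, and FOXA3, GATA1, GATA4, GATA5, HEYL and GRHL2 were listed at 0 in each library. Whether the annotation behind the table covered GRHL2 could not be checked, so its 0 is not read as absence. Their median difference was -0.19 for stiff IPN against soft IPN and 0.10 for stiff col against stiff IPN, and the block called 1 of them, HES4, in the second comparison (-1.72, adjusted p = 0.0376). Of 33 other transcription factors of mammary or squamous epithelium, 26 were tested, with medians of -0.04 and 0.02. With the block, PRDM1, a transcriptional repressor that promotes terminal differentiation in several cell types, was lower in stiff IPN than in soft IPN (-1.75, adjusted p = 0.0409), and the progenitor factor SOX9 was lower in stiff col against stiff IPN (-1.55, 0.0455). Among 9 factors of epithelial to mesenchymal transition, 7 were tested, with medians of -0.19 and 0.39, and SNAI2 was higher in stiff col against stiff IPN (1.13, adjusted p = 0.0279).

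Squamous differentiation genes include several families that grainyhead and Kruppel-like factors are known to regulate. Of 29, 16 were tested, with a median of 2.20 for stiff IPN against soft IPN and -3.96 for stiff col against stiff IPN. Of these 16, SPRR2A, SPRR2E, SPRR3 and KLK5 passed the filter on low values only through stiff IPN, so these 4 had to be high there and their calls carry no weight. The other 12, a choice made after seeing the data, had medians of 1.56 and -2.03. Of these 12 the block called 4 higher in the first comparison, among them SPRR2D (4.11, adjusted p = 0.0292) and PI3 (3.59, 0.0131), and 7 lower in the second, among them SPRR2D (-6.78, 0.00633) and KLK7 (-5.86, 0.0134). As values only, KLK5 had 5.12 in the first comparison and SPRR2A -5.58 in the second. The values of SPRR2D, KLK7 and SPRR2A in stiff col were at most 10 normalized counts, and KLK5 had 0 and 10 in soft IPN, so the sizes of these differences depend on the pseudocount. For KLK5 the blocked value was 3.48 without soft IPN replicate 1 and 6.77 without soft IPN replicate 2. PI3, which encodes the protease inhibitor elafin, had 165 and 387 normalized counts in soft IPN, 2616 and 3577 in stiff IPN, 36 and 182 in soft col:rBM and 46 and 244 in stiff col. Of 19 basal genes driven by p63, all were tested, with medians of -0.28 and 0.08. The block called ITGB4 (-1.45, adjusted p = 0.0292) and COL17A1 (-0.87, 0.0373) lower in stiff IPN than in soft IPN, and KRT14 (-1.52, 0.0328) and DST (-1.09, 0.0165) lower in stiff col against stiff IPN.

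Of 26 luminal genes, 15 were tested, with medians of 0.41 and -0.99. The block called MAL2 (1.69, adjusted p = 0.0273) and ALDH1A3 (1.53, 0.0344) higher in stiff IPN than in soft IPN, and 5 lower in the second comparison, among them ALDH1A3 (-2.51, 0.00781), MAL2 (-2.44, 0.00781) and MUC1 (-2.40, 0.00781). None of the 16 proliferation genes was called by either fit, with medians of -0.20 and 0.12. TOP2A had between 1461 and 3659 normalized counts and MKI67 between 1084 and 3097. The other 3 comparisons had no call in these lists. The rule for named genes chose 7 called list differences for stiff IPN against soft IPN beside KLK5, and 11 for stiff col against stiff IPN beside SPRR2A. Of the 7, each was lost without soft IPN replicate 2, 3 without soft IPN replicate 1, 1 without stiff IPN replicate 2, 2 without either soft col:rBM library and 2 without either stiff col library. Of the 11, the 5 of SPRR2D, KLK7, ALDH1A3, MAL2 and MUC1 were kept whichever library was left out. The other 6 were lost without either stiff col library, 5 of them without either soft IPN library, 2 without stiff IPN replicate 2 and 1 without soft col:rBM replicate 2.

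**Figure D4:**
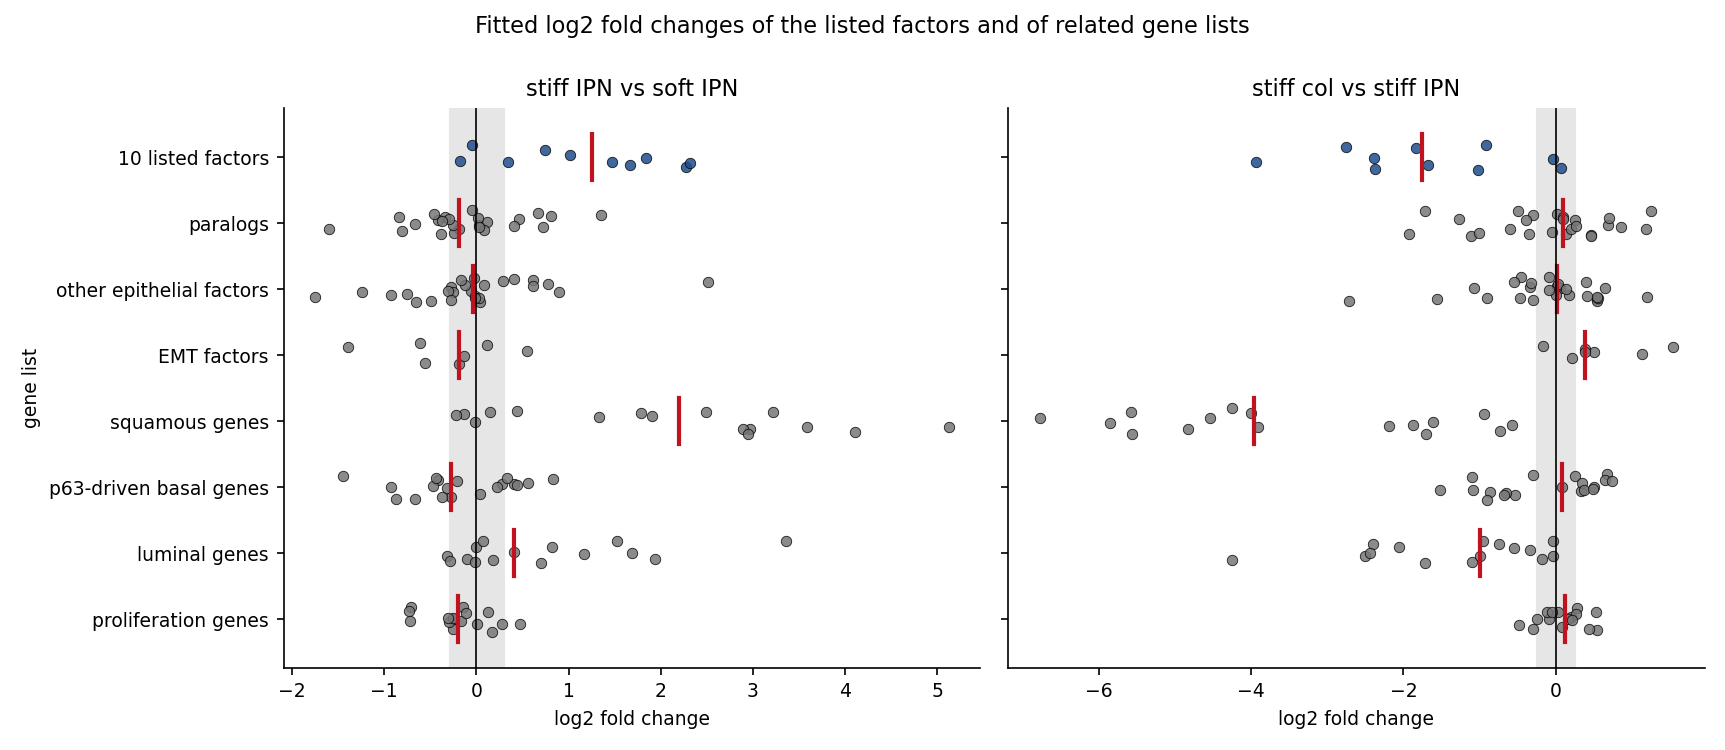
Fitted log2 fold changes of the 10 genes (top) and of the tested genes of 7 related lists for stiff IPN against soft IPN (left) and stiff col against stiff IPN (right), with 1 point per gene, a red line at each list's median and a grey band from the lower to the upper quartile of all genes tested. The medians of the 10 genes are 1.25 and -1.75, and those of the 16 squamous genes 2.20 and -3.96, or 1.56 and -2.03 without the 4 that passed the filter on low values only through stiff IPN.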

How the data were processed

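MCF10A cells from 4 hydrogels were profiled by RNA-seq, 2 libraries per gel, grouped by their labels. The authors trimmed reads with Trim Galore 0.3.3, aligned them to hg19 (the methods name Bowtie2, the submitters' processing notes TopHat2 2.0.13), removed multimapped reads and summarized reads per gene with HTSeq. What the authors deposited is a signal, read counts scaled by 1 factor per library and rounded. The design allowed a count model for unscaled reads, but the values are scaled, so limma was used. The annotation and strand setting are not given in the sources used here. Library factors, and from them reads and floors of 3 reads, were estimated from gaps and repeats in the whole numbers, and such floors and intervals cover counting error only.

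Genes with at least 10 normalized counts in at least 2 libraries were tested with limma 3.58.1 (statmod 1.5.0, R 4.3.3) on log2(normalized count + 1), which understates changes of low genes, with 1 mean per gel, all 8 libraries, trend and robust moderation. Benjamini-Hochberg adjustment ran over all 13369 genes, at a threshold of 0.05. The scripts were tested on simulated data. For 2 libraries against 2, an exact permutation test cannot go below 0.333 (two-sided). Replicate numbers were taken to pair the libraries. Deviations correlated in all 6 pairs of gels (r from 0.278 to 0.819), least for those with stiff IPN (0.278, 0.393 and 0.398). A fit with the replicate number as a block is therefore given where it changes a call. Other alternatives were pseudocounts, filters, rescalings, gels fitted alone and each library left out.

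All 10 members are named. From each related list the 3 called genes with the largest differences are named, or the 2 most abundant where none was called. Of the genes this rule names, 1 is not reported here. Likeness names 3 genes per member among those with a mean of at least 50. Members and lists were chosen with earlier results of these data known. Gene positions and exon lengths are from GENCODE 44 lifted to GRCh37. Spreadsheet dates stood in place of 28 gene labels, which were not matched. Summaries and plots used Python 3.11.15, NumPy 2.4.6, pandas 2.3.3, SciPy 1.17.1 and Matplotlib 3.10.9.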

Additional observations from a re-analysis of the deposited data

Results flagged for a closer look

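OVOL1 and KLF4 are given here because their libraries lay in opposite directions with stiffness in the 2 kinds of gel, without overlap, as did those of 237 genes (1.77%) of all tested. In OVOL1 both stiff IPN libraries were above both soft IPN libraries, and both stiff col libraries were below both soft col:rBM libraries. The change with stiffness in collagen less the change in IPNs was -3.84 (log2), and limma did not call it (adjusted p = 1, and 0.180 with the block). In KLF4 the same arrangement held, with a difference of -1.08 that was not called either (adjusted p = 1, and 0.420 with the block). For KLF4 the unblocked value without stiff IPN replicate 2 was -0.57. By their names the soft and stiff collagen gels also differ in rBM, so stiffness and composition cannot be told apart there.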

How the results depend on the processing

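Of 1370 log2 differences of the 10 genes recomputed under the alternatives, 1241 kept their direction and their side of the threshold. Another 79 kept their direction and passed the threshold in addition. The other 50 changed sign, in 19 results and only when a library was left out. Among the 50, TP63 also passed the threshold in the blocked fit without stiff IPN replicate 2, for both comparisons with that gel. A left-out library leaves its gel with 1, which is then assumed to vary like the other gels. Low depth limits OVOL1 and ELF3 most, since both have values under 10. Pseudocounts, filters and rescalings without the block called 0 of the 10 genes.

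With the trial as a block, limma called 3 of the 10 for stiff IPN against soft IPN (511 of all genes), 4 for stiff col against stiff IPN (330) and 3 by the F test (211). For all genes it called 3 in soft col:rBM against soft IPN and 2 in the difference of stiffness effects, and the 3 became 0 under each of the other blocked settings below. The block with median-of-ratios rescaling gave 3, 4 and 3 of the 10, with 516, 329, 216 and, for the difference of effects, 2 of all genes. The block with a pseudocount of 5 gave 3, 4 and 3, with 545, 360, 235 and 2. The block with at least 10 in each library gave 3, 3 and 1, with 445, 225, 111 and 2, and did not test OVOL1 and ELF3. Without the block, a pseudocount of 5 called 4 genes for stiff col against stiff IPN, and the 4 libraries of the IPNs fitted alone called 2 genes. The block changed no other call among the 10 genes, and the cause of these changes was not tested.

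With 1 library left out, with or without the block, the 10 genes had 0 to 7 calls for stiff IPN against soft IPN, 0 to 8 for stiff col against stiff IPN, 0 to 1 for soft col:rBM against soft IPN, 0 to 5 for the difference of effects and 0 to 7 by the F test. Over all genes the ranges were 0 to 2688, 0 to 2215, 0 to 21, 0 to 675 and 0 to 2034, and 0 to 30 for stiff col against soft col:rBM.

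The differences that changed sign, with or without the block, ranged as follows when 1 library was left out. For stiff IPN against soft IPN, EHF ranged from -0.21 to 0.90 and TP63 from -0.72 to 0.62. For stiff col against stiff IPN, GATA3 ranged from -0.22 to 0.16 and TP63 from -0.61 to 0.74. For stiff col against soft col:rBM, EHF ranged from -0.74 to 0.71, ELF3 from -0.41 to 2.18, FOXA1 from -1.09 to 0.65, GATA3 from -0.10 to 0.28, GRHL1 from -1.08 to 0.011, HES2 from -1.92 to 0.43 and TP63 from -0.91 to 0.47. For soft col:rBM against soft IPN, FOXA1 ranged from -0.48 to 1.25, GRHL1 from -0.15 to 0.52, GRHL3 from -1.11 to 0.22, HES2 from -0.86 to 0.20, KLF4 from -0.094 to 0.42 and TP63 from -0.46 to 0.92. For the difference of effects, EHF ranged from -1.09 to 0.37 and TP63 from -0.86 to 0.52. The cause was not tested.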
